A study of Homo sapiens with 18 samples.

Results

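MYC binding sites called with the G9a hairpin shG9a_4 were compared with those called with the scramble hairpin shSCR in chromatin immunoprecipitation followed by sequencing (ChIP-seq). The members were all MYC peaks that the authors listed on chromosomes 1 to 22 in 3 shG9a_4 and 3 shSCR libraries. These 124140 peaks merged into 41779 regions, against 42343 regions from the 148456 peaks of all 9 MYC lists in the series. The cells were MCF10A, an immortalised breast epithelial line. Every group, the controls included, carried MYC from pBABE-hygro-MYC, the mutant PI3KH1047R from pMN-IRES-GFP-PI3KH1047R, and a hairpin in pLKO-tetON-puro. Doxycycline at 2 µg/mL induced the hairpin for 72 h, and MYC was precipitated with the homemade antibody N262. The series design describes the 3 libraries of a group as biological replicates, and the labels do not say whether the lines were clones. The measurements therefore describe cells with ectopic MYC, and the lists do not separate it from the cells' own MYC.

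MYC is a transcription factor that binds DNA as a dimer with MAX, chiefly at E-box motifs in promoters and enhancers. It activates genes of ribosome production, nucleotide and polyamine synthesis and cell growth, and it lowers the transcription of a set of genes that restrain the cell cycle. G9a, the product of EHMT2, forms a complex with GLP (EHMT1) that places mono- and dimethyl marks on lysine 9 of histone H3, marks found mostly on silent chromatin. Peak lists measure neither RNA nor protein, so they could not check G9a depletion or the cell type label, and they do not say which bound genes were transcribed.

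Sequencing depth, recovered from the peak values and set against the mean of the controls, was 0.925 to 1.04 in the shSCR libraries and 1.90, 1.05 and 2.65 in shG9a_4 replicates 1, 2 and 3. Replicate 2 was thus the only shG9a_4 library of a depth like that of the controls. Values that rest on depth are given per library for this reason, and the part of depth in the results was not tested. Replicate 1 of the other G9a hairpin, shG9a_1, listed 111 peaks on these chromosomes, so only its replicates 2 and 3 are set beside the results for shG9a_4.

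The first comparison asked how much MYC binding was called with each hairpin. The shSCR lists held 29307, 34051 and 19781 peaks, and the shG9a_4 lists 11044, 17206 and 12751. Even the longest shG9a_4 list held fewer peaks than any control list. The means were 27713 ± 7267 and 13667 ± 3181 peaks (SD, n = 3 each), a difference of 50.7% with p = 0.1 in a two-sided exact permutation test. That is the smallest p that 3 libraries against 3 allow, so no single value per library could pass 0.05 here. The peaks covered 8.87, 12.2 and 6.31 Mb in shSCR and 2.95, 5.32 and 3.48 Mb in shG9a_4, again without overlap (exact permutation p = 0.1).

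The shorter shG9a_4 lists lay almost wholly within the shSCR lists. Regions that no shSCR library called made up 2.23, 5.40 and 2.1% of the regions called in shG9a_4 replicates 1, 2 and 3. Conversely, 15299 of the 41779 regions were called in 1 shSCR library and no shG9a_4 library, so many of the calls missing from shG9a_4 had not been repeated among the controls either. The 14020 regions called in all 3 shSCR libraries are termed shSCR-reproducible. Of these, shG9a_4 replicates 1, 2 and 3 called 58.5, 77.4 and 66.5%. The set was chosen by the controls' own calls, so any other library can only fall short of it. A control held out of the choice gives a like value. Of the regions called in both other controls, shSCR replicate 1 called 88.8% of 15792, while shG9a_4 replicates 1, 2 and 3 called 53.0, 72.2 and 61.0%. The held-out shSCR replicate 2 called 95.5% of 14688, against 56.2, 74.9 and 63.9%. The held-out shSCR replicate 3, the shortest control list, called 67.0% of 20918, against 43.4, 60.7 and 48.7%. Each held-out control was above each shG9a_4 library over the same regions, though replicate 3 by little over shG9a_4 replicate 2. Every control list was also longer than every shG9a_4 list, and a longer list can call more regions. Held-out values were not taken at equal list length, so the part of length was not tested.

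All 3 shG9a_4 libraries called 6559 of the shSCR-reproducible regions (46.8%, Wilson 95% interval 46.0 to 47.6%). A further 3115 (22.2%) were called in 2 libraries and 2457 (17.5%) in 1. No shG9a_4 library called the remaining 1889 (13.5%, Wilson 95% interval 12.9 to 14.0%). These intervals cover counting error only. An uncalled region was below the caller's limit in that library and is not shown to be unbound. The count of 1889 moved with the libraries used: leaving out shSCR replicate 1 gave 2961, leaving out shSCR replicate 3 gave 6208, and leaving out shG9a_4 replicate 2 gave 3430. With shG9a_4 replicate 2 as the only shG9a_4 library it was 3172.

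Calls followed the strength of the region in shSCR. Strength was taken as the mean percentile of the region's best peak, by q-value, within the 3 shSCR lists. The shSCR-reproducible regions were divided into 10 strength classes of equal size. In the weakest class, shG9a_4 replicates 1, 2 and 3 called 14.1, 36.2 and 19.8% of 1402 regions. In class 5 they called 50.8, 78.1 and 63.8%, and in the strongest 99.9, 100 and 99.9%. Replicate 2 called the most regions in each class and replicate 1 the fewest. The regions called in 0, 1, 2 and 3 shG9a_4 libraries had median shSCR folds over background of 6.33, 7.13, 8.09 and 12.3, and median merged widths of 346, 423, 489 and 683 bp. Short lists hold the strongest peaks by construction, so this order describes the lists and is not evidence about weak sites.

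**Figure D1:**
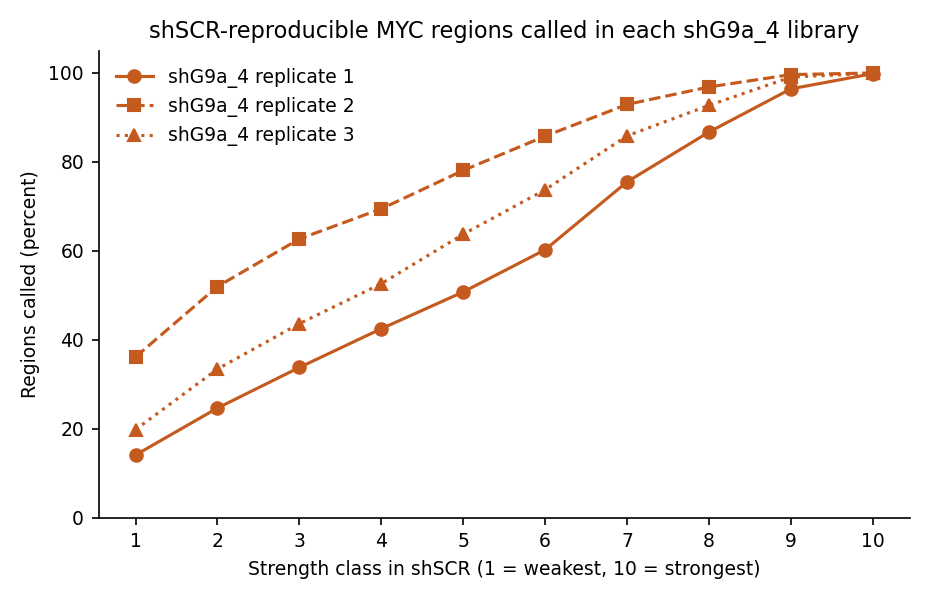
Share of the 14020 shSCR-reproducible regions (percent, vertical axis) called in each shG9a_4 library, by strength class in shSCR (horizontal axis, 1 weakest to 10 strongest). Each line is 1 library, and the shares were 14.1 to 36.2% in the weakest class and 99.9 to 100% in the strongest.

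With every list limited to its 11044 top peaks, the length of the shortest list, the uncalled share was far smaller. Of 6389 regions then called in all 3 shSCR libraries, 4651 (72.8%) were called in all 3 shG9a_4 libraries and 176 (2.75%) in none. In the same setting 103 regions belonged to all 3 shG9a_4 lists and to none of the controls, 1.77% of the 5815 regions of all 3 shG9a_4 libraries. Of the 15310 regions called in any shG9a_4 library, 3016 (19.7%) were called in 1 of them and no control. Another 526 (3.44%) were called in 2 and no control. The cut also took weaker regions out of the shSCR-reproducible set, and weaker regions were the least often called at full length. The smaller uncalled share therefore does not separate list length from the strength of the regions kept. No control was held out at this length, so these shares have no control value beside them.

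The next comparison asked how high the shared sites stood. At the 6559 regions called in all 6 libraries, the median pileup over background was 49.1, 57.3 and 44.2 in shSCR and 20.1, 37.8 and 19.4 in shG9a_4. Pileup over background is the recovered number of fragments at the summit divided by the lowest background of that library. The means were 50.2 ± 6.66 and 25.8 ± 10.4 (SD, n = 3 each), so shG9a_4 stood at 51.3% of shSCR, and the groups did not overlap (p = 0.1 in the exact permutation test). The lowest values were in the deepest libraries, shG9a_4 replicates 1 and 3. Replicate 2, of a depth like that of shSCR, lay between them and the controls. The shG9a_4 mean less the shSCR mean was −24.5 over all 3 shG9a_4 libraries and, over the regions that replicate 2 and the controls called, −10.5 with replicate 2 alone (exact permutation p = 0.5, the smallest that 1 library against 3 allows).

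The authors' fold and the width of the peaks gave the same order. The median fold at these regions was 11.6, 14.0 and 11.0 in shSCR and 7.24, 9.85 and 8.02 in shG9a_4. The median peak width was 439, 575 and 400 bp in shSCR and 268, 366 and 283 bp in shG9a_4. Both had an exact permutation p of 0.1 and no overlap. The regions lean to strong sites by construction, since each of 6 lists had to call them.

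In the group means, height differed by a like proportion at weak and strong shared sites. The regions were divided into 5 strength classes by their mean rank score over all 6 libraries, so neither group chose the division. From the weakest to the strongest class, the mean pileup over background with shG9a_4 was 53.0, 53.1, 50.7, 51.2 and 51.2% of that with shSCR. In the weakest class the libraries stood at 31.3, 36.9 and 29.4 in shSCR and 15.1, 23.1 and 13.6 in shG9a_4. In the strongest they stood at 91.5, 113 and 90.8 in shSCR and 37.7, 73.4 and 39.8 in shG9a_4. The groups were apart in every class (exact permutation p = 0.1 each). The shSCR means were 32.5 in the weakest class and 98.3 in the strongest. Relative to these, shG9a_4 replicate 1 stood lower in the strongest class than in the weakest, replicate 3 slightly lower and replicate 2 higher. The like proportion thus holds for the mean and not for each library. Peak width was nearer to shSCR at strong sites, at 61.8% in the weakest class and 71.1% in the strongest. Fold, which has 1 added above and below the ratio, went the other way, from 75.4 to 68.2%.

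**Figure D2:**
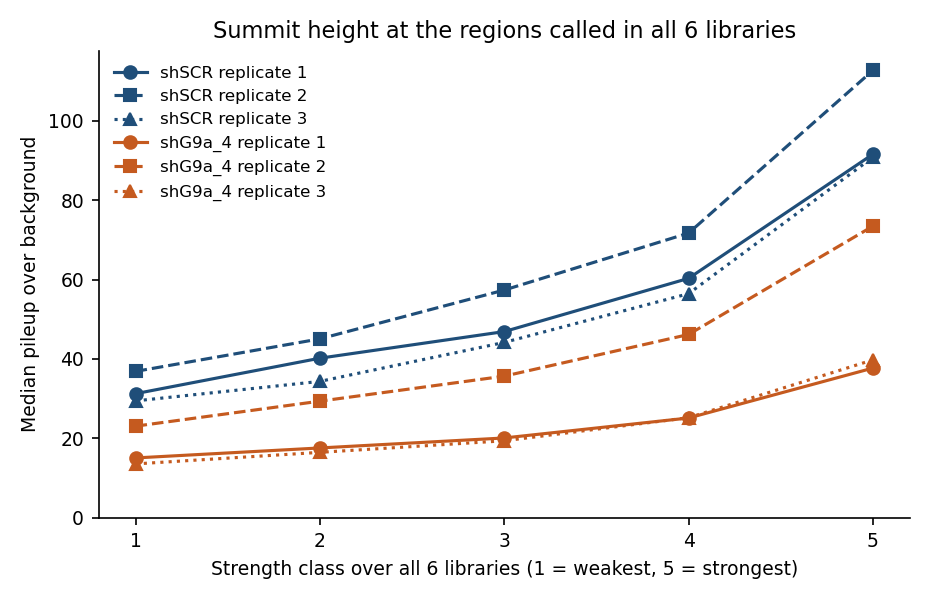
Median pileup over background (no unit, vertical axis) in each library at the 6559 regions called in all 6, by strength class over all 6 libraries (horizontal axis, 1 weakest to 5 strongest). The shG9a_4 lines lie under the shSCR lines in each class, with shG9a_4 replicate 2 nearest to them.

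Beyond overall height, the comparison asked whether shared sites changed places within the lists. Each library was ranked by q-value over the same 6559 regions, and ranks were turned into normal scores, so that a shift of 1 is a move of 1 standard deviation within the library. Under limma's moderated test, 0 regions (0%) moved up and 0 (0%) moved down with shG9a_4 at an adjusted p under 0.05, and the lowest adjusted p was 0.206. At an unadjusted p under 0.05, 276 moved up and 247 moved down, together 7.97%. The scores of the groups did not overlap, with shG9a_4 higher, at 441 regions (6.72%) and, with shG9a_4 lower, at 397 (6.05%). Together these made up 12.8% of the regions. Where 3 libraries are set against 3 without a difference, a share of 0.1 is expected not to overlap.

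Shifts were mostly small beside their error. The median size of the shift was 0.30 against a median standard error of 0.43, and 6243 regions (95.2%) shifted by less than 1. The median 95% interval, taken without adjustment over regions, reached 0.87 to either side. After adjustment the largest shift, 2.22, did not pass either, so shifts well above 0.87 also went undetected with 3 libraries a group. Across regions, which are not independent replicates, the group mean scores correlated at r = 0.852. Of the top 500 regions of each group, 382 (76.4%) were the same. Scores of 2 libraries correlated at 0.705 to 0.761 within shSCR, 0.673 to 0.720 within shG9a_4 and 0.658 to 0.717 between the groups. Summits of a region lay a median of 32 to 34 bp apart within shSCR, 35 to 39 bp within shG9a_4 and 32 to 38 bp between them, so the pairs across groups were about as near as pairs within a group.

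**Figure D3:**
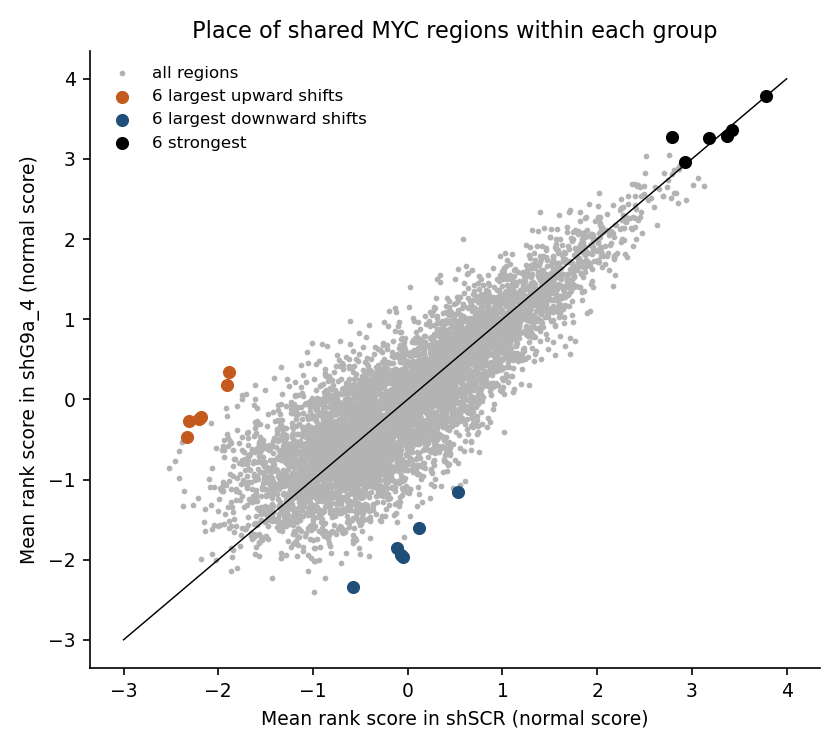
Mean rank score (normal score, no unit) of each of the 6559 shared regions in shSCR (horizontal axis) and shG9a_4 (vertical axis), with the line of equal scores. Coloured points mark the 6 largest upward shifts (1.85 to 2.22), the 6 largest downward shifts (−1.91 to −1.69) and the 6 strongest regions. The last were chosen by mean score over all 6 libraries, so they lie close to the line by choice.

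The 6 strongest sites were chosen by their mean score over all 6 libraries, so high places in both groups follow from the choice. Their values are given as a description. Positions here and below are those of hg19. The region at chr7:4681258-4682105 ranked 1 in all 6 libraries, with folds of 64.9, 118 and 121 in shSCR and 60.6, 92.0 and 71.0 in shG9a_4. Its pileup over background was 420, 487 and 449 in shSCR and 211, 365 and 171 in shG9a_4, so an equal rank went with a lower height. The region at chr17:42147795-42148704 ranked 2, 4 and 2 in shSCR and 2, 7 and 2 in shG9a_4. That at chr5:154134002-154135545 ranked 3, 3 and 3 and then 6, 3 and 3. That at chr2:70312984-70315163 ranked 13, 2 and 6 in shSCR and 3, 4 and 6 in shG9a_4. The shift of the 6 strongest regions ran from −0.07 to 0.48. The upper end was chr1:33282542-33283971, which ranked 48, 26 and 4 in shSCR and 8, 2 and 4 in shG9a_4 (limma adjusted p = 0.411). All 6 were called in all 3 libraries of shG9a_1 too. Its 111-peak replicate 1 called 107 (1.63%) of the 6559 shared regions.

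No shift passed the test, so the regions with the largest shifts are given as a description. The largest upward one, 2.22 ± 0.51 (standard error, n = 3 each; limma adjusted p = 0.206), was at chr2:152159513-152159768. Its folds were 4.89, 5.61 and 6.71 in shSCR and 10.5, 7.71 and 11.6 in shG9a_4, and its ranks were 6506, 6448 and 5645 against 1775, 4076 and 1541. All 3 shG9a_4 libraries stood above all 3 controls in the authors' fold, as they did by choice in rank. Its pileup over background was 15.6, 26.6 and 31.9 in shSCR and 22.6, 39.9 and 27.2 in shG9a_4, and here the groups overlapped. The region at chr16:15766127-15766433 followed, with folds of 4.24, 6.81 and 5.75 in shSCR and 8.89, 13.3 and 8.18 in shG9a_4 (shift 2.09 ± 0.50, limma adjusted p = 0.206). Its pileup over background also overlapped between groups, at 22.3, 32.8 and 27.0 against 18.8, 39.9 and 15.5.

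The other 4 of the largest upward shifts were 1.85 to 2.04, at chr5:72744323-72744762, chr22:41798039-41798455, chr18:3603354-3603656 and chr10:68397028-68397257. The region on chromosome 18 had folds of 5.47, 4.41 and 5.09 in shSCR and 4.94, 14.5 and 6.80 in shG9a_4, so its fold overlapped and its shift leant on replicate 2. Mean folds of the 6 regions in shSCR were 4.90 to 5.74, so all came from the weak end of the shared set. Of the 6, shG9a_1 replicate 2 called 5 and replicate 3 called 4, next to 84.8 and 89.8% of all 6559 shared regions.

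The largest downward shift, −1.91 ± 0.50 (standard error, n = 3 each; limma adjusted p = 0.243), was at chr19:36705229-36705575. Its folds were 11.6, 11.5 and 14.2 in shSCR and 4.74, 5.01 and 3.38 in shG9a_4. It ranked 3742, 4221 and 2300 in shSCR and 6231, 6383 and 6476 in shG9a_4, near the end of the 6559. Regions were picked here for ranks that did not overlap. Pileup over background, taken from the same peaks, was 38.0, 51.2 and 46.6 against 11.3, 16.8 and 14.5. The groups were apart, as were the medians over all 6559 regions, so this adds no support. The region at chr15:101791889-101792819 had folds of 15.0, 17.4 and 10.7 in shSCR and 4.50, 5.01 and 5.21 in shG9a_4 (shift −1.73 ± 0.48, limma adjusted p = 0.245). That at chr19:6720628-6721049 had folds of 10.4, 14.0 and 12.2 and then 4.13, 5.01 and 4.37 (shift −1.74 ± 0.49, limma adjusted p = 0.254).

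The remaining 3 of the largest downward shifts, at chr3:98827412-98827777, chr20:56784818-56785165 and chr14:74036379-74036811, were −1.87 to −1.69. The last of these leant on shG9a_4 replicate 2, where it ranked 6538, and the shift was −0.89 without that library. Over the 6 regions mean folds were 9.83 to 17.5 in shSCR and 3.78 to 6.01 in shG9a_4. All 6 were called in shG9a_1 replicates 2 and 3, which called 84.8 and 89.8% of all 6559 shared regions, so nothing is read from that count.

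Among the shSCR-reproducible regions that no shG9a_4 library called, the 6 of highest shSCR strength had mean folds of 10.9 to 13.4 and percentiles of 80.0 to 87.6. They were strong sites within the shSCR lists. Of all 1889 uncalled regions, shG9a_1 replicates 2 and 3 called 14.7 and 19.2%, and of these 6 they called 1 and 2. The 1889 had a median shSCR percentile of 40.5, against 84.4 for the regions called in all 3 shG9a_4 libraries. The share that shG9a_1 called of regions of like strength was not taken, so nothing is read from these values. The region at chr1:68092088-68092476 had folds of 13.4, 18.1 and 8.76 in shSCR and was called in shG9a_1 replicate 3. That at chr14:35805617-35806510, 894 bp wide, had folds of 12.8, 14.0 and 9.25 in shSCR and was called in shG9a_1 replicates 2 and 3. The others, at chr5:121737948-121738449, chr1:218599057-218599368, chr3:124553799-124554170 and chr10:24779971-24780267, were called in no library of either hairpin. The 2 hairpins share their shSCR controls, so these calls are set side by side and not counted as an overlap.

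Of the 6839 regions in all 3 shG9a_4 lists, 9 (0.132%) were absent from every control list. Leaving out shSCR replicate 1, 2 or 3 gave 15, 23 or 15 such regions, leaving out shG9a_4 replicate 1 gave 45, and leaving out shG9a_4 replicate 3 gave 36. With regions built from summits within 200 bp it was 57. The strongest, at chr5:10335879-10336177, had folds of 7.24, 7.60 and 10.6 and was also called in shG9a_1 replicate 3. That at chr14:55587572-55587813 had folds of 7.46, 7.78 and 7.85, and that at chr17:4901358-4901749, also called in shG9a_1 replicate 2, folds of 6.13, 7.43 and 7.38. Of all 9 regions, shG9a_1 replicates 2 and 3 called 2 and 1, counts without a reference share from which nothing is read. The first stood at the 59.5, 59.8 and 82.0 percentile of the shG9a_4 lists, and the 6 named by the rule averaged 34.4 to 67.1. These 6 sites were of middle to low strength in their own lists, with chr20:48036951-48037139 at the 11.4 percentile of shG9a_4 replicate 3. Their widths were 164 to 392 bp. The others named were chr13:40703290-40703536, chr5:31153738-31153901 and chr20:48036951-48037139.

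Genomic spread was compared next. The 1889 uncalled regions lay on all 22 chromosomes and in 1099 windows of 1 Mb. The 14020 shSCR-reproducible regions lay in 2129 such windows, and the 6559 called in all 6 libraries in 1768. A smaller set reaches fewer windows, so these counts do not compare the spread of the sets. Along the chromosomes, no more than 5 neighbouring shSCR-reproducible regions in a row were uncalled. The run length that uncalled regions placed at random would give was not worked out, so nothing is read from this value.

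The share of a list that fell on each chromosome was much the same in both groups. Shares in 2 of 22 chromosomes (9.09%) did not overlap between groups. Where 3 libraries are set against 3 without a difference, a share of 0.1 is expected not to overlap, so this count is given as a description. Chromosome 1 held 11.1, 11.0 and 11.0% of the shSCR peaks and 11.3, 11.3 and 11.2% of the shG9a_4 peaks. At equal list length the direction turned, with mean shares of 11.6% in shSCR and 11.4% in shG9a_4. Chromosome 18, which is poor in genes, held 2.00, 2.01 and 1.83% of the shSCR peaks and 1.79, 1.78 and 1.65% of the shG9a_4 peaks, a log2 ratio of −0.16 that was −0.05 at equal list length. None passed the exact permutation test after adjustment over chromosomes (lowest adjusted p = 0.66), nor could it with 3 libraries a group. The share of shSCR-reproducible regions left uncalled ran from 11.4% on chromosome 16 to 18.9% on chromosome 18, and the median rank shift per chromosome from −0.09 to 0.07.

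**Figure D4:**
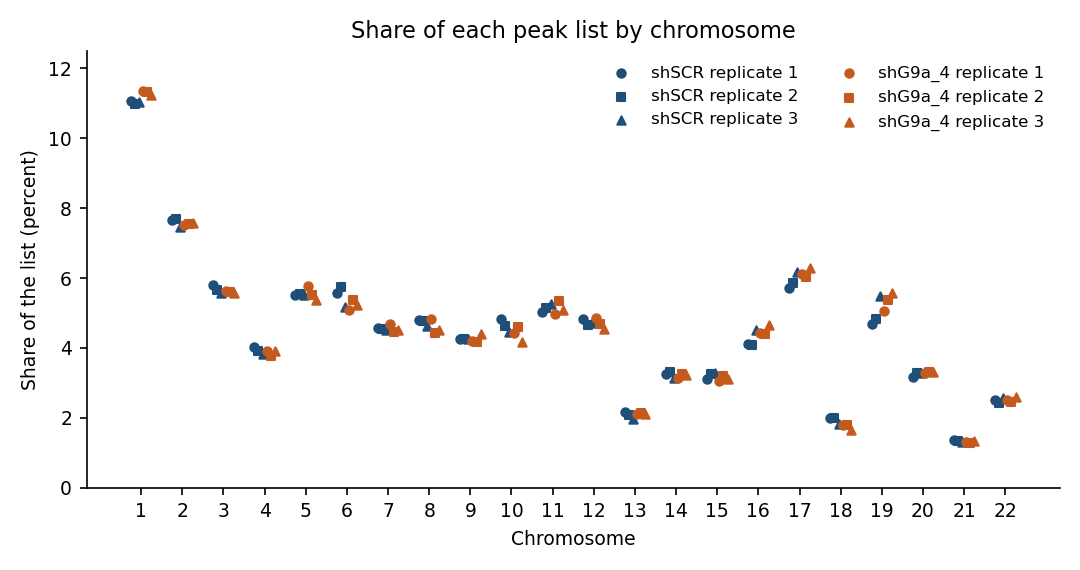
Share of each peak list (percent, vertical axis) on chromosomes 1 to 22 (horizontal axis), with 1 point per library. The shSCR and shG9a_4 points lie together on most chromosomes, and are apart on chromosomes 1 and 18.

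At 10 Mb scale, limma's test on the share of each list called 2 of 286 windows higher (0.699%) and 3 lower (1.05%) with shG9a_4 at an adjusted p under 0.05. At an unadjusted p under 0.05 there were 26 and 35. The lower windows were on chromosome 18 from 60 to 70 Mb, with 57, 64 and 35 peaks in shSCR and 14, 21 and 14 in shG9a_4, chromosome 6 from 20 to 30 Mb, with 154, 197 and 83 against 32, 67 and 42, and chromosome 10 from 20 to 30 Mb, with 103, 122 and 57 against 23, 45 and 27. Their log2 differences in share were −0.61 ± 0.14, −0.58 ± 0.12 and −0.54 ± 0.12 (standard error; limma adjusted p = 0.0276 each). The higher windows were chromosome 1 from 150 to 160 Mb, by 0.30 ± 0.07 (319, 359 and 228 peaks against 148, 220 and 184; limma adjusted p = 0.0487), and chromosome 16 from 20 to 30 Mb, by 0.41 ± 0.09 (104, 148 and 80 against 61, 86 and 67; limma adjusted p = 0.0276). A higher share here went with fewer peaks in number, since every shG9a_4 list was shorter.

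These window calls moved with the strength of the sites they held and with list length. The shSCR peaks of the 3 lower windows had median percentiles of 46.1, 40.6 and 41.7, and those of the 2 higher windows 60.7 and 57.9, against 49.5 for the median window. Over 277 windows, the difference in share correlated at r = 0.67 with the median strength of their shSCR peaks, given as a description since windows share libraries. At equal list length that correlation was −0.09, and 0 of 277 windows passed, with 9 higher and 14 lower at an unadjusted p under 0.05 and a lowest limma adjusted p of 0.27. The differences of the 3 lower windows were then −0.41, −0.17 and −0.18 and those of the 2 higher ones 0.04 and 0.24. There were also 0 calls in either direction when shSCR replicate 1, shG9a_4 replicate 1 or shG9a_4 replicate 3 was left out, and 13 higher and 18 lower when shSCR replicate 3 was.

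Peaks stood less crowded in the shG9a_4 lists. Another peak of the same list lay within 10 kb of 59.9, 60.9 and 54.7% of shSCR peaks and of 43.1, 51.8 and 46.9% of shG9a_4 peaks (exact permutation p = 0.1). The direction turned at equal list length, with 35.1, 31.3 and 36.1% in shSCR and 43.1, 38.0 and 42.1% in shG9a_4. Counted over merged regions at equal length, where several peaks of a broad site count once, the means were 29.4 and 29.5%. Windows of 1 Mb with a peak numbered 2407, 2448 and 2232 in shSCR and 1992, 2173 and 2022 in shG9a_4. At equal length they were 2038, 2046 and 2013 against 1992, 2013 and 1975 (exact permutation p = 0.2), so the lists reached nearly as many parts of the genome.

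Named loci were examined as 29 windows around genes of the MYC network, the H3K9 methyltransferases, growth genes, genes known to be repressed by MYC, basal epithelial genes and gene clusters. A window holds the named gene and its surroundings, and a region in it is not assigned to that gene. Together 26 windows held 265 shSCR-reproducible regions, of which 41 were called in no shG9a_4 library and 115 in all 3. The EHMT2 window lies within that of the major histocompatibility complex, so its 3 regions enter the counts of both. None of the shared regions passed the limma rank test (lowest adjusted p = 0.243). Next to the 13.5% uncalled and 46.8% called in all 3 over the genome, the groups of windows hold few regions, and no test was made between them.

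In the windows of MYC and its partners and antagonists, 11 of 19 shSCR-reproducible regions (57.9%) were called in all 3 shG9a_4 libraries and 3 (15.8%) in none. At the MYC and PVT1 locus the strongest region, chr8:128806449-128808467, had folds of 44.7, 51.7 and 64.9 in shSCR and 28.5, 45.7 and 25.8 in shG9a_4. Its ranks of 17, 32 and 8 against 29, 24 and 54 overlapped. The region in the window of MAX, the obligate dimer partner of MYC, at chr14:65568572-65570029, ranked 262, 515 and 514 in shSCR and 1332, 923 and 495 in shG9a_4 (shift −0.41 ± 0.25, limma adjusted p = 0.710). In the window of MNT, a repressor that competes with MYC for MAX, 6 of 7 regions were called in all 3 shG9a_4 libraries. In that of MGA, another MAX partner, it was 1 of 5.

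The windows of the H3K9 methyltransferases held 10 shSCR-reproducible regions, of which 3 were called in all 3 shG9a_4 libraries and 2 in none. The best region in the window of EHMT2, the gene of G9a itself, lay at chr6:31869333-31870456, with folds of 6.94, 18.7 and 10.5 in shSCR and 6.13, 11.5 and 6.06 in shG9a_4. The best region in the EHMT1 window, chr9:140506039-140507017, had folds of 9.40, 10.7 and 9.73 in shSCR, and was called in shG9a_4 replicates 2 and 3 with folds of 5.01 and 6.17. In the window of SETDB1, an H3K9 methyltransferase outside the G9a complex, the best region at chr1:150898562-150899064 was likewise uncalled in replicate 1 and had folds of 12.2 and 5.78 in the others. The best regions of the EHMT2 and EHMT1 windows were thus called in at least 2 shG9a_4 libraries. Other regions were not: in the EHMT1 window 0 of 4 were called in all 3 and 2 in none. In the EHMT2 window 2 of 3 were called in all 3 and 0 in none.

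Windows of growth genes that MYC is known to activate held some of the strongest sites. Nucleolin (NCL) and nucleophosmin (NPM1) are abundant nucleolar proteins of ribosome assembly. The NCL region, chr2:232328210-232329753, had folds of 30.6, 66.3 and 56.0 in shSCR and 27.5, 44.3 and 37.3 in shG9a_4, and ranked 63, 25 and 24 against 60, 42 and 23. The NPM1 region, chr5:170814338-170815998, had folds of 62.4, 53.0 and 69.2 against 35.0, 31.6 and 25.3, which did not overlap, and ranks of 6, 23 and 5 against 12, 59 and 22, which did (shift −0.35 ± 0.16, limma adjusted p = 0.615). Both regions stood within the first 63 places in every library. Pileup over background at NCL was nevertheless apart between groups, at 196, 229 and 209 in shSCR and 65.3, 147 and 89.2 in shG9a_4. Medians of fold and pileup over all shared regions were apart too, so these gaps are not particular to NPM1 and NCL. The best region in the window of ODC1, the rate-limiting enzyme of polyamine synthesis, at chr2:10587705-10589163, ranked 82, 82 and 305 against 198, 183 and 326. That in the window of CAD, which starts pyrimidine synthesis, at chr2:27440097-27440855, ranked 1019, 256 and 159 against 345, 317 and 258. In all, 6 of 11 regions in these windows were called in all 3 shG9a_4 libraries and 2 in none, the latter all weaker neighbours of the regions named.

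Windows of genes that MYC is known to repress held weaker sites than those of the growth genes. Median shSCR percentiles per window were 47.9 to 72.2 against 74.3 to 99.9. This was not particular to them, as the basal epithelial windows below had medians of 48.5 to 69.0. Of 15 shSCR-reproducible regions, 5 were called in all 3 shG9a_4 libraries and 3 in none. The JUN window held 5 of the 15, of which 2 were called in all 3. These shifted by 0.29 and 0.60 in rank score and did not pass (lowest limma adjusted p = 0.847). The 2 shared regions of the CDKN1B window shifted by −0.54 and 0.50, and that of the CDKN1A window by 0.51. Only 1 of these windows' regions was reproducible in shSCR at equal list length, so the comparison at like length had almost nothing to compare. The region at chr1:68150704-68151220, in the window of the growth arrest gene GADD45A, had folds of 7.33, 14.0 and 7.16 in shSCR. No shG9a_4 library called it, while shG9a_1 replicates 2 and 3 did. In the FOS window, chr14:75765358-75766041 had folds of 9.24, 6.41 and 5.27 in shSCR and was called in no library of either hairpin. In the window of CDKN1A, an inhibitor of cyclin-dependent kinases, chr6:36646145-36646814 was called in all 6 libraries. Its folds of 8.69, 10.7 and 5.50 against 5.83, 6.83 and 8.37 overlapped. In the window of CDKN1B, of the same function, chr12:12877783-12879076 had folds of 11.9, 20.3 and 11.5 against 6.62, 10.6 and 6.01. The CDKN2A and CDKN2B window held no region in any of the 6 libraries. MCF10A is known to lack this locus, which was not examined here.

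Basal epithelial windows held 36 shSCR-reproducible regions, of which 14 (38.9%) were called in all 3 shG9a_4 libraries and 8 (22.2%) in none. TP63 encodes a transcription factor of basal epithelial cells. The best region of its window, chr3:189302452-189302969, had folds of 10.4, 26.0 and 14.9 in shSCR and 3.71, 8.69 and 8.42 in shG9a_4, which did not overlap. Its rank shift of −1.03 ± 0.49 did not pass (limma adjusted p = 0.615), and its ranks of 4225, 919 and 1746 against 6382, 2900 and 3140 overlapped. The gap in fold is not particular to this region, since the median folds over all shared regions were apart too. The best region in the window of EGFR, the receptor of the growth factor in the medium, was chr7:55141619-55142223, with folds of 11.0, 22.4 and 12.9 against 12.9, 12.8 and 12.3. In the type II keratin cluster 9 of 21 regions were called in all 3 shG9a_4 libraries, and in the type I cluster 1 of 4.

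Large gene clusters held 177 shSCR-reproducible regions, 78 (44.1%) called in all 3 shG9a_4 libraries and 23 (13.0%) in none, shares near those of the genome. In the 19q zinc-finger clusters, whose genes encode transcriptional repressors, 28 of 66 regions were called in all 3. The strongest there, chr19:57791019-57792375, ranked 371, 285 and 212 in shSCR and 49, 49 and 89 in shG9a_4 (shift 0.65 ± 0.19, limma adjusted p = 0.256). Its folds of 24.8, 22.8 and 28.3 against 21.7, 30.1 and 21.3 overlapped, so its higher place went with an about equal fold. In the 6p22 histone gene clusters, which lie in the lower window on chromosome 6, 8 of 24 regions were called in all 3 and 4 in none. In the major histocompatibility complex it was 39 and 7 of 74. The HOXA window had 1 of 6 called in all 3 and the HOXC window 1 of 6. The HOXD window held no region in any library, and the 19p zinc-finger clusters held 3, none reproducible in shSCR.

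**Figure D5:**
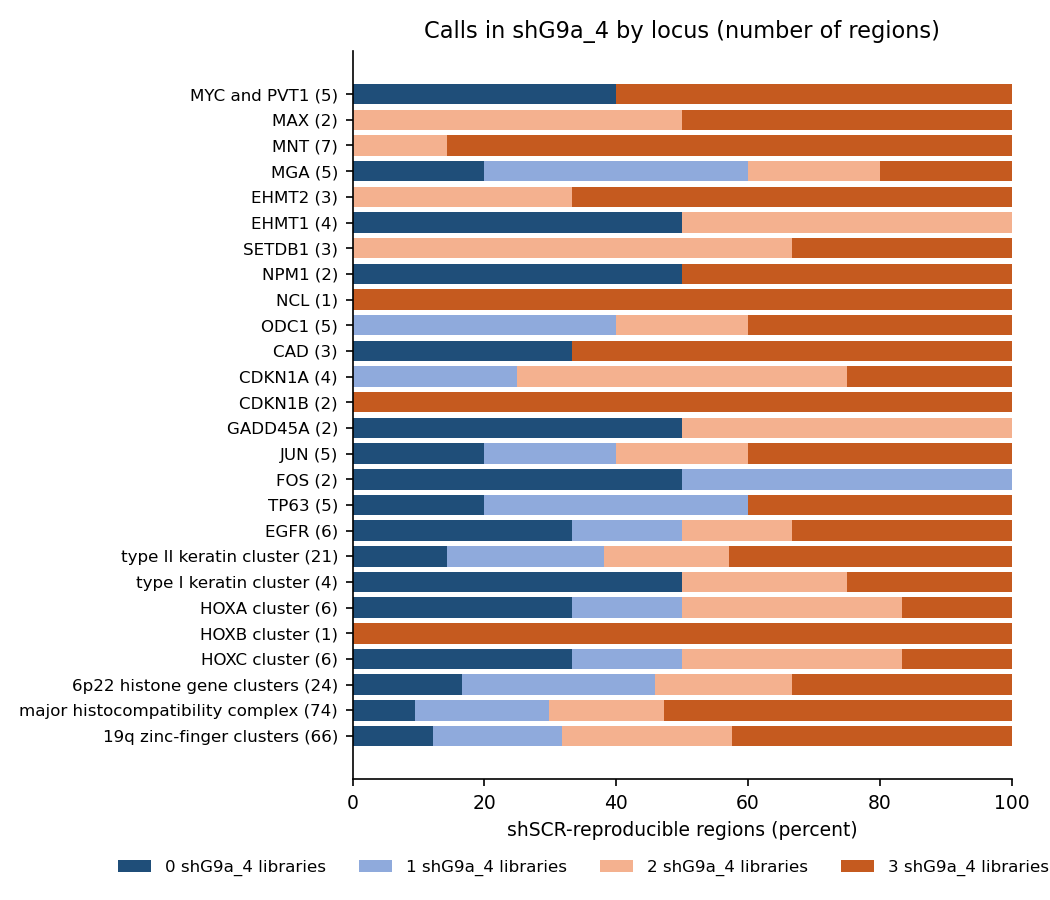
Share of the shSCR-reproducible regions of each locus window (percent, horizontal axis; number of regions in brackets) called in 0, 1, 2 or 3 shG9a_4 libraries. Windows with few regions vary widely, while the 74 regions of the major histocompatibility complex and the 66 of 19q were called in all 3 libraries at 39 and 28 regions.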

How the data were processed

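Tools listed in the submitters' processing notes are MACS2 2.1.0, Picard 2.7.1, SAMtools 1.3 and STAR 2.5.2a, with no role attached, and the build is listed as hg19 or GRCh37. Peak calling settings were not given in the sources used here. The authors deposited 1 list per library with, for each peak, a score that is 10 times the −log10 q-value with decimals dropped in nearly every case. The fold enrichment the authors deposited is the ratio of summit pileup plus 1 to local background plus 1, as the recovered pileups show, and the deposited −log10 p and −log10 q are the caller's values within that library.

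Peaks on chromosomes 1 to 22 were merged at an overlap of at least 1 bp. Whole-number pileups were recovered from fold and p within 0.001 on the −log10 p scale for 100% of peaks. The lowest background shared by at least 1% of a library's peaks served as its background and, divided by the shortest peak, gave relative depth. This assumes 1 genome size setting for all libraries. Normal scores of ranks, and log2 of (peaks + 0.5)/(list length + 1) in 10 Mb windows with at least 30 peaks, were fitted with limma 3.58.1 (R 4.3.3, trended variance) over all regions or windows, with Benjamini-Hochberg adjustment at 0.05. Single values per library were compared with an exact permutation test, two-sided (Python 3.11.15, scipy 1.17.1). The scripts were tested on simulated data.

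Named regions were the 6 strongest uncalled in shG9a_4, the 6 strongest found only there, the 6 largest shifts each way among regions whose groups did not overlap, and the 6 of highest mean score over all libraries, plus the windows that passed. Locus windows have rounded hg19 bounds written from general knowledge of gene positions, since no hg19 genome or annotation was used. They were set after the lists were opened and before the values in them were looked at. Members, lists and tests were chosen with earlier results of these data known. Alternatives tried were equal list length, a −log10 q or fold of at least 5, summit merging, other rank measures, 5 Mb windows, the replicate block, and each library left out in turn. The 9 input samples have no list here, and sequences and promoters were not analysed. Values with 1 control held out were added after the results were seen.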

Additional observations from a re-analysis of the deposited data

How the results depend on the processing

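Alternatives with shG9a_4 replicate 2 alone, and merged regions in place of peaks, were chosen after seeing the data. Equal list length gave 6389 shSCR-reproducible regions, 176 of them uncalled, 103 regions found only with shG9a_4, and 0 higher and 0 lower windows, and it reversed the difference in neighbouring peaks to 6.89 percentage points (0.0769 for merged regions). It shortens the shSCR lists most, by construction. Summit merging gave 57 regions only with shG9a_4. With shG9a_4 replicate 2 alone, 3172 regions were uncalled, 10854 were called in every library, 846 were only in shG9a_4, and 4 moved down in rank. Windows of 5 Mb gave 1 higher window and a fold of at least 5 gave 0. The replicate block gave 13 higher and 11 lower windows, no rank shifts, and −14046 peaks at an exact permutation p of 0.25, the smallest possible. The planned fit did not pair replicate numbers, and the block was an alternative. Deviations of same-numbered libraries correlated at 0.0204 to 0.0767 and others at −0.0698 to 0.0220. Replicates 1 and 3 of shG9a_4 correlated best with their own number and replicate 2 did not. These values do not settle whether the numbers are pairs. Leaving out 1 library gave 14020 to 21032 shSCR-reproducible, 2262 to 6208 uncalled and 13 to 45 shG9a_4-only regions, 0 to 1 regions moved up (the 1 without shSCR replicate 3), and 0 to 13 higher and 0 to 18 lower windows. The causes of these changes, other than the one named, were not tested. The differences in peak number (−18012 to −10877), pileup over background (−29.0 to −19.4) and 1 Mb windows (−365 to −257) kept their direction in each leave-one-out. The planned promoter, motif and gene list alternatives were not run. Depth is known only relatively, so an uncalled region was not detectable in that list and no more can be said.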

Other observations

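Chromosome X, outside the comparison, held 1.74, 1.98 and 1.67% of the peaks in shSCR replicates 1, 2 and 3 and 1.11, 1.42 and 1.32% in shG9a_4 replicates 1, 2 and 3. The groups did not overlap, and this share was looked at after the lists were seen and was not tested.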
